A study of Mus musculus with 13 samples.

Results

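The collagen genes are all genes of the count table whose symbol has the form Col, a type number, the letter a and a chain number, such as Col6a2. There are 44 of them among 23366 listed genes. Membership follows from the name alone, but this set was chosen for study with earlier results of these data known. The RNA came from primary skeletal muscle cells of mice of mixed strain. Myoblasts were taken from the hind limbs of pups on postnatal days 2 to 3 and kept in a growth medium with calf serum and fibroblast growth factor. Myotubes had then spent 24 hours in a medium holding 1% horse serum, which lets the cells fuse. Cells were wild type or dICR/dICR. The latter lack, on both alleles, the imprinting control region of the H19 and Igf2 locus. The groups were 4 wild-type myoblast, 5 wild-type myotube, 2 dICR/dICR myoblast and 2 dICR/dICR myotube libraries. The labels do not say whether replicates were separate animals or cultures, so p-values measure the spread between these libraries, which may be technical.

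Collagens are secreted or membrane proteins in which 3 chains wind into a triple helix, and each gene encodes 1 type of chain. In muscle, fibrillar collagens (types I, III and V) fill the connective tissue between fibres. Types IV, XV and XVIII belong to the basement membrane that sheathes each fibre, and type VI links that sheath to the fibrils outside it. Fibroblasts are the best known source of fibrillar and type VI collagen, whereas muscle cells themselves make chains such as Col4a1, Col4a2, Col19a1 and Col25a1. In bulk RNA, fewer cells of a type and less RNA per cell cannot be told apart.

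Libraries held 5.31 to 56.44 M (mega) counts, with 7 libraries at 35.56 M or more (the deep set) and 6 at 10.91 M or less (the shallow set). Both dICR/dICR myoblasts are shallow and both dICR/dICR myotubes are deep, so each genotype effect is also given within the set that holds both genotypes. Wild-type myoblasts 1 and 2 and myotubes 1 to 3 are deep, and wild-type myoblasts 3 and 4 and myotubes 4 and 5 are shallow. H19 stood at 52.4 to 71.5 CPM in dICR/dICR and at 2345 to 40495 CPM in wild-type libraries, so the targeted locus matched the labels in every library. Small nucleolar RNA genes held 0.028 to 0.177% of all counts in the deep set and 2.813 to 7.185% in the shallow set. Among wild-type libraries the Y-linked gene Ddx3y divided in the same way. It held 27.6 to 176 CPM in the deep and 0.153 to 0.462 CPM in the shallow ones. In wild type, depth, the small nucleolar RNA share and the Ddx3y level therefore cannot be told apart in any difference between the sets. The same holds for any difference in the sex of the pups, which the labels do not give. The labels describe an Illumina and a SOLiD platform but not which library was run on which. Whether the platform also divides the sets is therefore not known. In dICR/dICR, Ddx3y was present in both sets, at 14.5 and 63.1 CPM in the shallow and 104 and 20.5 CPM in the deep libraries. CPM is the count scaled to the library total, which was first adjusted by its TMM factor, a scaling that aligns most genes between libraries. The muscle regulators Myod1 and Myog had 185 to 1349 and 142 to 6412 CPM, so muscle markers were present in every library. All 44 collagen genes passed the filter on low counts, but 12 had fewer than 10 counts in every library of at least 1 group, and 2 of these were under 10 counts in each of the 13 libraries.

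Collagen transcripts made up 0.142 to 0.429% of all counts. The highest share was in wild-type myotube 2, at 0.429% (95% Wilson interval 0.427 to 0.431%, counting error only), and the other 4 wild-type myotubes held 0.146 to 0.289%. There were 21 collagen genes above 10 CPM in at least 1 group mean and 23 below it in every group. Per kilobase of transcript, the scale on which genes can be compared with each other, Col18a1 was the most abundant collagen of wild-type myoblasts, at 115 CPM per kb. Col3a1 (53.6 CPM per kb), Col5a2 (50.6 CPM per kb), Col19a1 (42.0 CPM per kb) and Col4a1 (39.6 CPM per kb) followed in the mean over all 4 libraries. The deep and shallow pairs differed in this order: Col19a1 and Col4a1 held 10.4 and 8.48 CPM per kb in the deep pair, below Col1a2 at 40.8 CPM per kb, and 73.5 and 70.7 CPM per kb in the shallow pair. In wild-type myotubes Col5a2 led at 116 CPM per kb, ahead of Col3a1 (69.3 CPM per kb), Col19a1 (63.4 CPM per kb) and Col5a1 (46.7 CPM per kb). Without library 2 Col5a2 still led at 113 CPM per kb, but Col19a1 (73.3 CPM per kb) came before Col3a1 (46.7 CPM per kb), Col18a1 (43.8 CPM per kb) and Col5a1 (34.0 CPM per kb). Col4a1 led in both dICR/dICR groups, at 61.3 CPM per kb in myoblasts and 38.0 CPM per kb in myotubes. Col19a1 held 19.1 CPM per kb in dICR/dICR myotubes, where 6 other collagen genes stood above it.

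**Figure D1:**
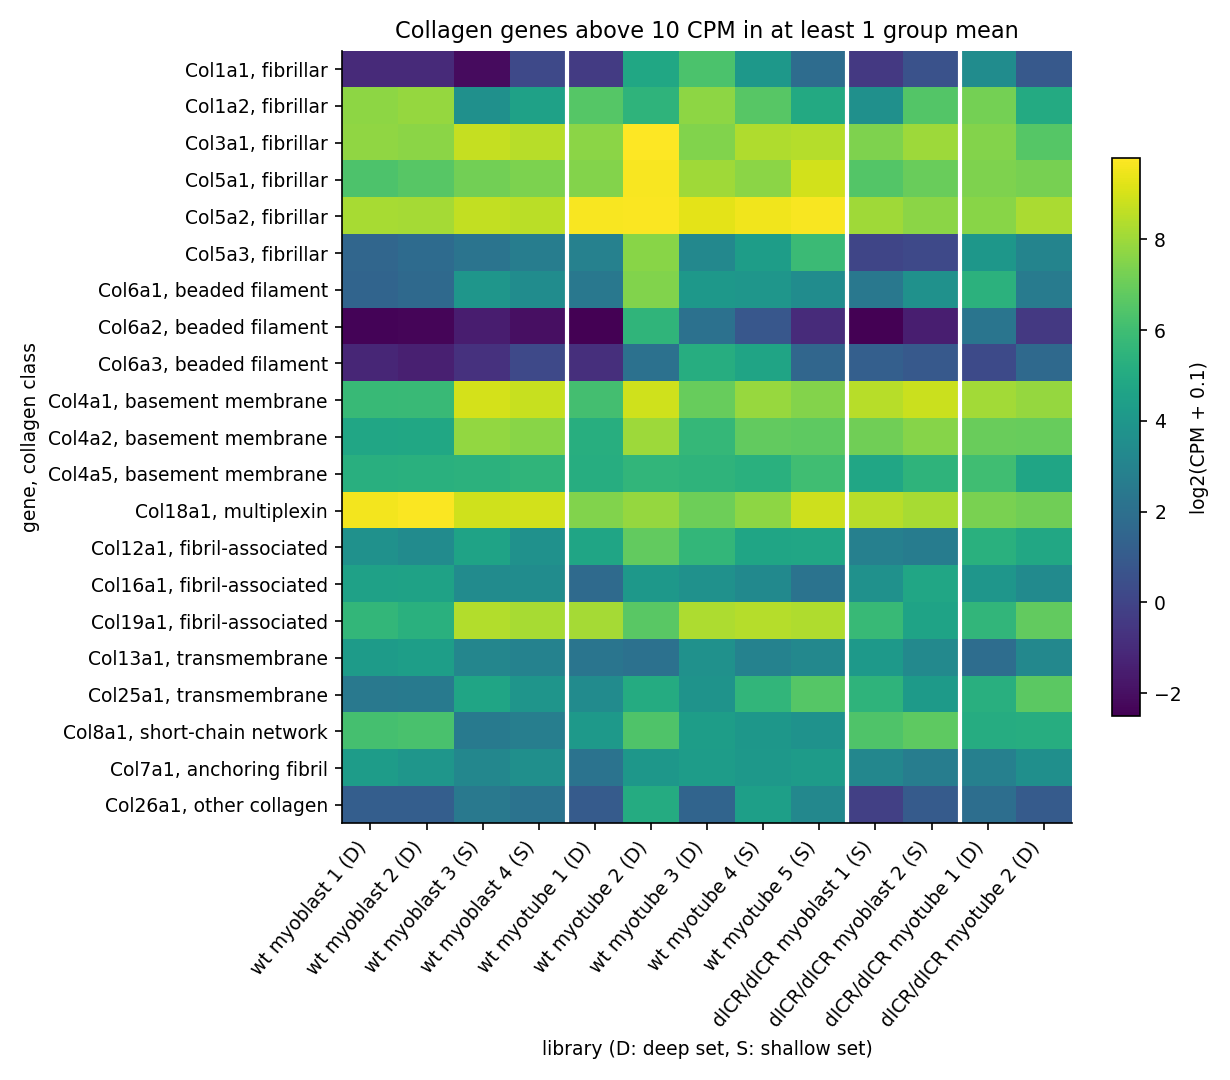
Heat map of the 21 collagen genes above 10 CPM in at least 1 group mean (rows, grouped by class) in the 13 libraries (columns, D for deep and S for shallow), coloured by log2(CPM + 0.1). The Col6a2 row is dark in wild-type myoblasts (0.0932 to 0.247 CPM) and brightest in wild-type myotube 2 (46.9 CPM), while Col5a2 is high in every wild-type myotube (627 to 853 CPM).

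The first question is which collagen chains change as wild-type myoblasts become myotubes. Of the 11 fibrillar genes 4 rose, and of the 6 type VI genes 2 rose: Col1a1, Col5a1, Col5a2, Col5a3, Col6a2 and Col6a3 were higher in myotubes, as were Col4a4, Col12a1 and Col15a1. Col18a1, the most abundant chain of myoblasts, fell. Of the 44 genes, 9 were called higher and 1 lower at an adjusted p under 0.05 (edgeR quasi-likelihood, Benjamini-Hochberg over 16537 genes), which is 22.7% of the collagen genes where 19.1% of all genes were called. The share called higher was 20.5%, against 8.86% of all genes, and the share called lower 2.27%, against 10.2%. The median log2 fold change over the 44 was 0.40 and over all genes 0.02, and 26 of 44 were positive. With library size alone as the scaling, which moves the median of all genes to -0.26, 5 collagen genes were called higher and 2 lower, where 4.71% and 17.1% of all genes were. With limma voom 4 were called, where 24.0% of all genes were. Without wild-type myotube 2 there were 8 higher and 1 lower, where 23.1% of all genes were called, and the 9 were the same genes as before except Col15a1. The count was 3 without wild-type myoblast 1 or without wild-type myoblast 2, and 6 without wild-type myoblast 4, where 11.8, 11.4 and 17.9% of all genes were called. The 3 that remained in the first pair of these, Col1a1, Col5a2 and Col18a1, were called whichever 1 of the 13 libraries was left out.

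Type I collagen, the main fibre-forming collagen of connective tissue, is built from Col1a1 and Col1a2 chains. Col1a1 was nearly silent in wild-type myoblasts, at 0.392, 0.389, 0.123 and 1.07 CPM in libraries 1 to 4, which is 21, 20, 1 and 7 counts. In wild-type myotubes 1 to 5 it stood at 0.686, 28.5, 79.9, 16.5 and 3.46 CPM. Library 1 lay inside the myoblast range and the other 4 myotubes lay above it. The log2 fold change was 5.83 ± 1.31 (SE, adjusted p = 0.0106), and 5.84 ± 1.39 without wild-type myotube 2 (adjusted p = 0.0118). It was 6.53 ± 1.70 within the deep set (adjusted p = 0.0143) and 4.15 ± 1.82 within the shallow set (adjusted p = 0.189). Col1a1 passed in 21 of 23 alternative settings, with adjusted p from 1.31e-07 to 0.189, and missed with limma voom and within the shallow set.

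Col1a2, the partner chain, did not follow Col1a1. It held 207 and 229 CPM in the deep wild-type myoblasts and 12.7 and 22.8 CPM in the shallow ones. In wild-type myotubes 1 to 5 it held 94.8, 45.2, 211, 96.0 and 31.6 CPM, so the groups overlapped. Its log2 fold change came to -0.30 ± 0.89 (adjusted p = 0.858), and its sign turned within the shallow set (1.85 ± 0.98, adjusted p = 0.275). Per length there were 654 Col1a2 transcripts for each Col1a1 transcript in wild-type myoblast 2, the highest ratio, and 1.76 in wild-type myotube 2, the lowest. The dICR/dICR myotubes, at 14.8 and 19.8, lay between these.

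Col3a1, the chain of type III collagen that accompanies type I in reticular fibres, was abundant before and after the change of medium. It held 214, 203, 424 and 352 CPM in wild-type myoblasts, against 203, 888, 174, 321 and 342 CPM in wild-type myotubes 1 to 5. Library 2 stood far above the other 4, which lay within or below the myoblast range. The log2 fold change of 0.37 ± 0.47 (adjusted p = 0.633) became -0.19 ± 0.35 without library 2 (adjusted p = 0.751).

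Type V collagen, which starts fibril assembly and sets fibril diameter, had 3 chains in these cells, each called higher over all libraries. Col5a2 held 289, 278, 407 and 368 CPM in wild-type myoblasts, against 804, 853, 627, 749 and 819 CPM in wild-type myotubes. The groups did not overlap, and library 2 stood close to libraries 1 and 5. On the log2 scale the change was 1.20 ± 0.22 (adjusted p = 0.00372), and 1.17 ± 0.24 without library 2 (adjusted p = 0.00534). It was 1.43 ± 0.24 in the deep set (adjusted p = 0.00149) and 1.02 ± 0.25 in the shallow set (adjusted p = 0.0354), and Col5a2 was the 1 collagen called within the shallow set. It passed under each of its 23 alternative settings, with adjusted p from 3.15e-07 to 0.0354.

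Col5a1, the partner of Col5a2 in the common trimer, held 81.6, 95.4, 143 and 167 CPM in wild-type myoblasts. It held 181, 816, 262, 205 and 497 CPM in wild-type myotubes, each above all myoblasts. Myotubes minus myoblasts gave a log2 fold change of 1.69 ± 0.45 (adjusted p = 0.0214), and 1.24 ± 0.36 without library 2 (adjusted p = 0.0282). The call was lost without wild-type myoblast 1 (adjusted p = 0.0687) or 2 (adjusted p = 0.0685), with library size alone (adjusted p = 0.0559) and within the shallow set (1.18, adjusted p = 0.253).

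Col5a3, a less common type V chain, had the larger change: 2.87, 3.38, 4.56 and 6.43 CPM in wild-type myoblasts, against 7.35, 198, 9.43, 20.3 and 59.7 CPM in wild-type myotubes. All 5 myotubes lay above all 4 myoblasts, and library 2 was 13.3 times the median of the other 4. The change on the log2 scale was 3.81 ± 0.94 (adjusted p = 0.0160). It was 2.51 ± 0.63 without library 2 (adjusted p = 0.0154). The call was lost without wild-type myoblast 1 (adjusted p = 0.0527) or 2 (adjusted p = 0.0533), with limma voom (adjusted p = 0.0720) and within the shallow set (2.86, adjusted p = 0.206). The 250 bases before the RefSeq start of Col5a3 (GRCm38.p6, chr9:20815068-20815317, minus strand) are shown for 2 motifs found in many promoters, muscle ones among them. Capitals mark, in order, CCAAT at position -122 and the E-box CAGCTG (a form bound by MyoD) at -81, counted from the start, with no overlap between them.
Col5a3: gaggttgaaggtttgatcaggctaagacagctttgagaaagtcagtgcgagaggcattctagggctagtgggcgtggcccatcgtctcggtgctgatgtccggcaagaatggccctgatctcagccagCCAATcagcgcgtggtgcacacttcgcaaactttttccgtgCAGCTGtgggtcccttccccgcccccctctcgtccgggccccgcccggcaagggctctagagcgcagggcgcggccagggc
A match of letters is a description of this window and not evidence that a factor binds it. Searched on both strands in the 250 bases before the start, CAGCTG was in 17.1% of the 35 collagen promoters of the RefSeq table and in 12.8% of all 27025 promoters. CCAAT was in 34.3% and 34.5%.

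The other fibrillar genes were at most 11.6 CPM in any library and were not called. Col11a1, a chain of the thin fibrils of cartilage, held 0.680 to 1.36 CPM in wild-type myoblasts and 0.419, 9.80, 3.70, 2.46 and 4.07 CPM in wild-type myotubes, and its value of 2.25 ± 0.79 missed the threshold (adjusted p = 0.0671). Col27a1, another cartilage chain, held 3.09 to 9.62 CPM in wild-type myoblasts and 0.838 to 3.08 CPM in wild-type myotubes; the groups did not overlap, but -1.34 ± 0.48 was not called (adjusted p = 0.0676). The ranges over all libraries were 0.0762 to 1.23 CPM for Col2a1, 0.229 to 3.39 CPM for Col24a1 and 4.57 to 11.6 CPM for Col11a2. Of the 11 fibrillar genes 4 were called higher and 0 lower, where 8.86% and 10.2% of all genes were, and their median log2 fold change was 0.49, against 0.02 over all genes.

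Type VI collagen forms beaded filaments from Col6a1, Col6a2 and 1 longer chain, and its loss in people causes muscular dystrophy. Col6a2 was almost absent from wild-type myoblasts, at 0.0932, 0.0972, 0.247 and 0.153 CPM (5, 5, 2 and 1 counts). In wild-type myotubes 1 to 5 it held 0.0762, 46.9, 4.11, 1.69 and 0.407 CPM. Library 1 was as low as the myoblasts and library 2 was 44.7 times the median of the other 4, the largest such ratio among the collagen genes. The log2 fold change was 6.41 ± 1.78 (adjusted p = 0.0265), and 3.71 ± 1.16 without library 2 (adjusted p = 0.0397). The call was lost without wild-type myoblast 1 (adjusted p = 0.0816), 2 (adjusted p = 0.0821) or 4 (adjusted p = 0.0519), with limma voom (4.15, adjusted p = 0.188) and within the shallow set (2.40, adjusted p = 0.630).

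Col6a1 held 2.67, 3.17, 15.5 and 11.2 CPM in wild-type myoblasts, against 5.18, 175, 16.6, 15.2 and 11.0 CPM in wild-type myotubes. Apart from library 2 the myotubes lay within or just above the myoblast range. Its log2 fold change came to 2.49 ± 1.09 (adjusted p = 0.131), and 0.59 ± 0.72 without library 2 (adjusted p = 0.607).

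Col6a3, the long chain, showed another order of libraries. It held 0.336, 0.272, 0.493 and 1.07 CPM in wild-type myoblasts, against 0.457, 4.16, 35.2, 25.4 and 2.85 CPM in wild-type myotubes 1 to 5, so that libraries 3 and 4 were highest and library 2 was not. On the log2 scale the change was 4.84 ± 1.16 (adjusted p = 0.0144), and 5.13 ± 1.19 without library 2 (adjusted p = 0.0104). Col6a3 was not called without wild-type myoblast 1 or 2, with limma voom or within the shallow set (4.21 ± 1.67, adjusted p = 0.147). The 3 chains were therefore not in a fixed proportion: per length there were 4.22 Col6a1 transcripts for each Col6a2 transcript in wild-type myotube 2 and 82.8 in wild-type myoblast 4, and Col6a3 per Col6a1 ran from 0.00967 to 0.860. Col6a4, Col6a5 and Col6a6, alternative long chains of similar sequence between which reads could be split, were at most 2.31 CPM in any library.

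**Figure D2:**
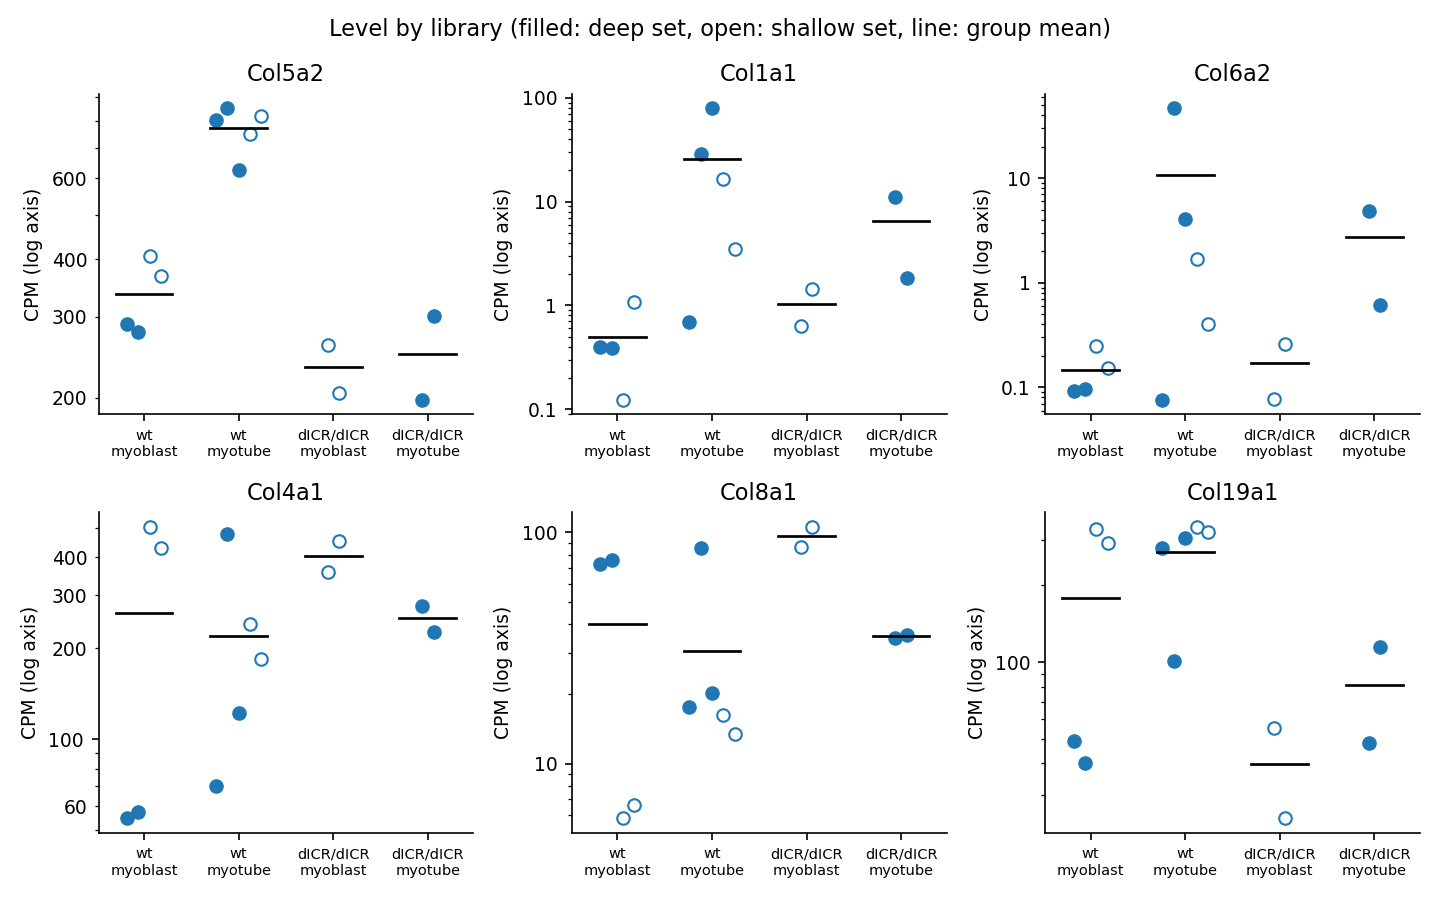
CPM of Col5a2, Col1a1, Col6a2, Col4a1, Col8a1 and Col19a1 (log axis) in each library by group, filled for the deep set and open for the shallow set, with a line at the group mean. Col5a2 separates wild-type myotubes (627 to 853 CPM) from every other group, whereas Col4a1, Col8a1 and Col19a1 divide wild-type myoblasts by depth set.

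Type IV collagen is the network of the basement membrane, and its common trimer joins Col4a1 and Col4a2. Col4a1 held 54.8 and 57.4 CPM in the deep wild-type myoblasts but 506 and 429 CPM in the shallow ones. In wild-type myotubes 1 to 5 it held 70.3, 479, 122, 241 and 184 CPM. Within the deep set it rose by a log2 fold change of 1.99 ± 0.63 (adjusted p = 0.0327), or 0.82 ± 0.28 without library 2 (adjusted p = 0.0363). Within the shallow set the value was -1.14 ± 0.64 (adjusted p = 0.315), and over all libraries -0.26 ± 0.69 (adjusted p = 0.842). Col4a2 gave 2.03 ± 0.66 in the deep set (adjusted p = 0.0369), -0.92 ± 0.67 in the shallow set (adjusted p = 0.449) and -0.07 ± 0.68 over all (adjusted p = 0.961). The difference between the sets was not tested.

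Across libraries Col4a1 ranged from 54.8 to 506 CPM and Col4a2 from 27.7 to 256 CPM, but their proportion moved little. Per length, Col4a1 was 1.67 to 2.49 times Col4a2 in all 13 libraries, so that the ratio varied 1.49-fold, where that of Col1a2 to Col1a1 varied 372-fold. The genes lie head to head on chromosome 8, and their RefSeq starts overlap (GRCm38.p6, Col4a2 on the plus strand from 11312805 and Col4a1 on the minus strand from 11312826). The 22 bases transcribed from both strands, at chr8:11312805-11312826, are shown because they belong to both genes.
Col4a1 and Col4a2: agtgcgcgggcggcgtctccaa

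**Figure D3:**
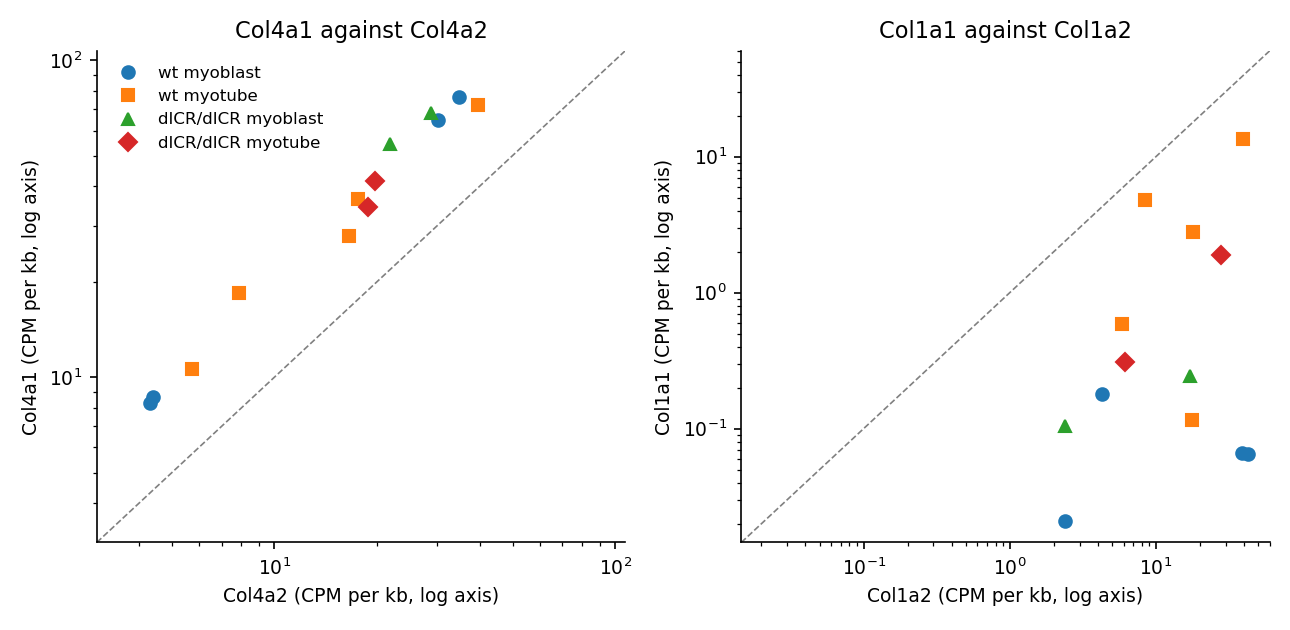
Levels in CPM per kb (log axes) of Col4a1 against Col4a2 and of Col1a1 against Col1a2, 1 point per library, with a dashed line at equal levels. The Col4a1 and Col4a2 points follow a line parallel to the dashed one (ratio 1.67 to 2.49), while the Col1a1 level spreads at any given level of Col1a2 (ratio of Col1a2 to Col1a1 1.76 to 654).

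Of the other type IV chains, Col4a5 held 37.6 to 46.0 CPM in wild-type myoblasts and 35.3 to 65.2 CPM in wild-type myotubes. Col4a3 and Col4a6 were at most 1.63 and 2.35 CPM in any library. Col4a4, a chain of the kidney and lung form, was called higher at very low levels: 0.522, 0.330, 0.370 and 0.306 CPM in wild-type myoblasts, against 0.610, 0.810, 3.85, 0.616 and 1.43 CPM in wild-type myotubes. Myotubes minus myoblasts gave a log2 fold change of 1.92 ± 0.62 (adjusted p = 0.0473), and 2.11 ± 0.64 without library 2 (adjusted p = 0.0349). The shallow myoblasts gave 3 and 2 counts, and the call was lost when any 1 of 10 libraries was left out.

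Col15a1 and Col18a1 encode the multiplexins, basement membrane collagens whose tails can be cut to release endostatin-like fragments. Col18a1 held 774, 835, 481 and 492 CPM in wild-type myoblasts, against 174, 232, 136, 208 and 461 CPM in wild-type myotubes, and the groups did not overlap. The change on the log2 scale was -1.41 ± 0.34 (adjusted p = 0.0138), and -1.38 ± 0.37 without library 2 (adjusted p = 0.0211). It was -2.15 ± 0.31 within the deep set (adjusted p = 5.61e-04) and -0.54 ± 0.34 within the shallow set (adjusted p = 0.373), which is the only 1 of its 23 alternative settings in which it was not called. Col15a1 went the other way, from 0.0932 to 0.306 CPM (1 to 9 counts) in wild-type myoblasts to 0, 7.81, 5.63, 1.39 and 0.407 CPM in wild-type myotubes 1 to 5. Its log2 fold change was 4.30 ± 1.38 (adjusted p = 0.0469), and 3.64 ± 1.36 without library 2, where it was no longer called (adjusted p = 0.0764). The call was also lost without any 1 of the wild-type myoblasts and without wild-type myotube 3 or 4. It was lost as well with limma voom, with library size alone and within the shallow set (2.14 ± 2.19, adjusted p = 0.610).

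Fibril-associated collagens decorate the surface of fibrils. Col12a1, found in tendon and muscle connective tissue, held 12.9, 10.5, 24.7 and 12.9 CPM in wild-type myoblasts, against 26.8, 113, 49.0, 26.6 and 27.3 CPM in wild-type myotubes, and the groups did not overlap. The log2 fold change was 1.68 ± 0.46 (adjusted p = 0.0255), and 1.11 ± 0.31 without library 2 (adjusted p = 0.0262). The call was lost within the shallow set (0.52 ± 0.53, adjusted p = 0.613), with library size alone and without wild-type myoblast 1, 2 or 4.

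Col19a1, which muscle cells make as they differentiate, held 49.0 and 40.0 CPM in the deep wild-type myoblasts and 333 and 294 CPM in the shallow ones. In wild-type myotubes 1 to 5 it held 281, 101, 306, 340 and 324 CPM, with library 2 below the other 4. It rose within the deep set, where its fold change was 2.37 ± 0.52 (log2, adjusted p = 0.00626), or 2.76 ± 0.42 without library 2 (adjusted p = 3.71e-04). Within the shallow set it gave 0.08 ± 0.52 (adjusted p = 0.950), and over all libraries 0.60 ± 0.63 (adjusted p = 0.561). Among wild-type myoblasts the summed level of 20 sarcomere genes was 7246 and 5996 CPM in the deep libraries and 26641 and 30393 CPM in the shallow ones, and its part in the Col19a1 values was not tested. Col14a1 and Col22a1, the latter a chain of muscle-tendon junctions, were at most 1.23 and 0.766 CPM in any library. Col16a1 held 10.5 to 23.5 CPM in wild-type myoblasts and 3.24 to 16.7 CPM in wild-type myotubes (-0.84 ± 0.47, adjusted p = 0.244). Col20a1 held 1.33 to 5.91 CPM over all libraries, and the cartilage chains Col9a1, Col9a2 and Col9a3 were at most 0.740, 0.766 and 1.80 CPM.

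Col25a1, a transmembrane collagen of muscle needed for motor nerves to enter it, held 5.43, 5.54, 26.4 and 15.0 CPM in wild-type myoblasts, against 10.8, 33.3, 14.0, 47.4 and 92.9 CPM in wild-type myotubes. Its log2 fold change came to 1.61 ± 0.71 over all libraries (adjusted p = 0.133), 1.82 ± 0.61 in the deep set (adjusted p = 0.0425) and 1.75 ± 0.65 in the shallow set (adjusted p = 0.122). Its upstream 250 bases (GRCm38.p6, chr3:130180595-130180844, plus strand) are shown for a repeat: the 16 bases in capitals occur at positions -161 and -75 on the same strand.
Col25a1: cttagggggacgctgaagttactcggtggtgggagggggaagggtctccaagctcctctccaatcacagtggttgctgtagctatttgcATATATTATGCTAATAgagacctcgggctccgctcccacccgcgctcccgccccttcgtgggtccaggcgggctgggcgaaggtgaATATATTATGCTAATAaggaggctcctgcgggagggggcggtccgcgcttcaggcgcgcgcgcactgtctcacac
Of all 27025 promoters in the table, 2.01% hold some run of 16 bases that occurs again without overlap. Col13a1, a transmembrane collagen of the neuromuscular junction, went lower within the deep set (-1.44 ± 0.49, adjusted p = 0.0468) and gave -0.87 ± 0.44 over all libraries (adjusted p = 0.192). Its levels were 18.9, 20.8, 8.63 and 7.66 CPM in wild-type myoblasts, against 4.76, 4.19, 12.9, 7.54 and 9.37 CPM in wild-type myotubes. Col17a1, of skin hemidesmosomes, and Col23a1 were at most 2.15 and 3.73 CPM in any library.

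Of the remaining genes, Col7a1, which anchors the skin to its basement membrane, held 9.00 to 19.4 CPM in wild-type myoblasts and 4.50 to 19.4 CPM in wild-type myotubes. Col26a1 held 2.13 to 5.43 CPM in wild-type myoblasts and 1.94, 33.7, 2.67, 21.9 and 9.37 CPM in wild-type myotubes, and was not called (2.01 ± 0.79, adjusted p = 0.0955). Col10a1, of growth plate cartilage, was at most 5.09 CPM, Col28a1 1.73 CPM and Col8a2 0.613 CPM.

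Within the deep set alone, 17 collagen genes were called in wild-type differentiation, 15 higher and 2 lower, where 29.1% of all genes were called. They were the same genes as over all libraries except Col4a4, with Col4a1, Col4a2, Col6a1, Col19a1, Col23a1, Col25a1, Col28a1 and, lower, Col13a1 in addition. Without wild-type myotube 2 the deep set gave 13 higher and 2 lower, where 37.3% of all genes were called. Within the shallow set 1 was called, where 6.98% of all genes were.

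**Figure D4:**
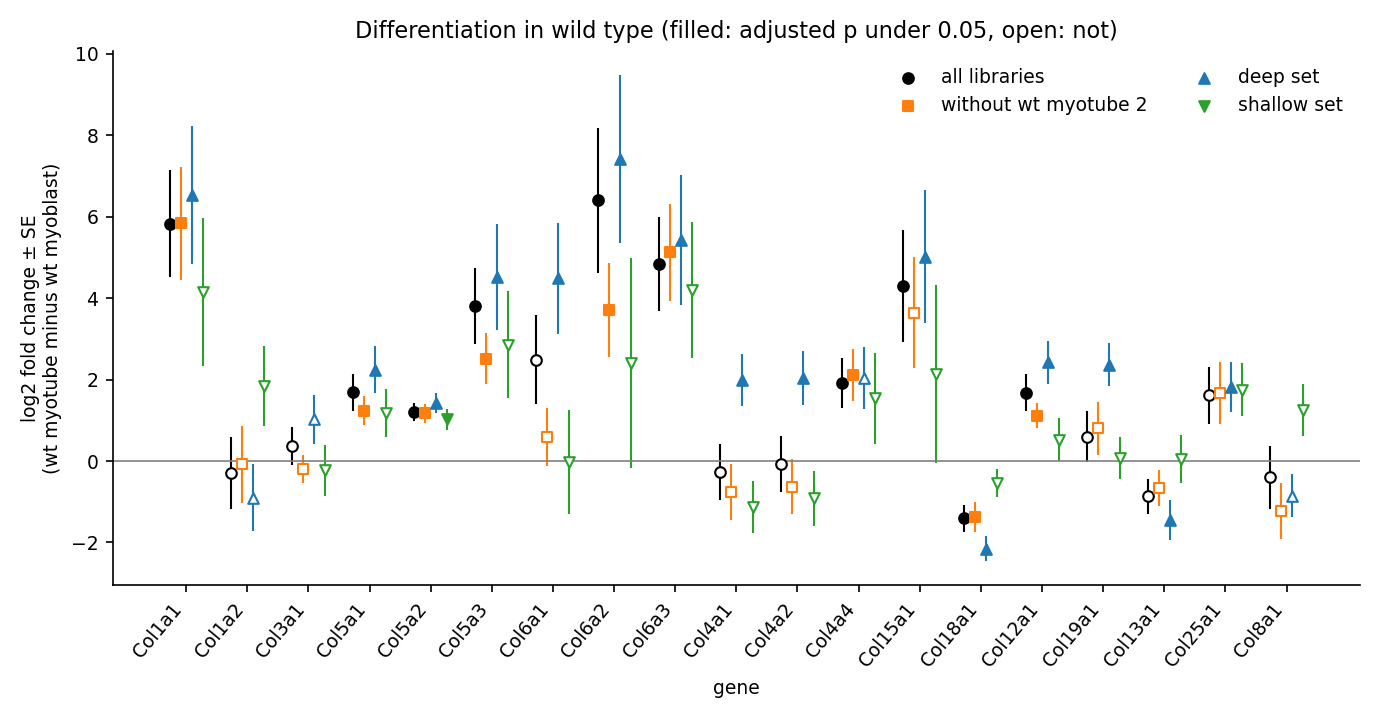
Log2 fold change ± SE of wild-type myotubes minus wild-type myoblasts for 19 collagen genes, over all libraries, without wild-type myotube 2, within the deep set and within the shallow set. Filled symbols have an adjusted p under 0.05 and open ones do not. Col5a2 is filled in all 4 settings, and Col4a1 and Col4a2 lie above 0 in the deep set and below 0 in the shallow set.

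The second question is how far these values separate collagen of fibroblasts from collagen of muscle cells, and wild-type myotube 2 bears on it. In that library 18 of the 44 collagen genes were above all 4 other wild-type myotubes, or 40.9%, against 19.9% of all genes, and 4 were below all 4 (Col10a1, Col13a1, Col17a1 and Col19a1), or 9.09%, against 16.8%. Col6a2, Col5a3, Col6a1, Col15a1 and Col6a5 stood furthest above, at 44.7, 13.3, 13.3, 8.71 and 7.57 times the median of the other 4. Col1a1 and Col1a2 did not share this: their ratios were 2.86 and 0.474, inside the range of the others.

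Of the fibroblast markers, Pdgfra, Dcn, Lum and Thy1 were near 0 in that library and in the rest, but other markers of the list were not. Pdgfra was 0.549 CPM in wild-type myotube 2 and at most 3.08 CPM anywhere, Dcn 0.463 and at most 1.59 CPM, Lum 0.0289 and at most 0.156 CPM, and Thy1 0.0578 and at most 0.617 CPM. In all, 11 of 27 fibroblast markers were under 4 CPM in every library. Wild-type myotube 2 had the highest value of the 13 libraries for 6 of the 27, a count whose share over all genes was not computed. It lay above the other 4 wild-type myotubes for 19.9% of all genes that passed the filter and for 12 of the 27 markers. Among these were Pdgfrb at 79.8 CPM (0 to 12.4 CPM in the other wild-type myotubes), a receptor shared by fibroblasts and pericytes, the protease gene Fap at 20.4 CPM (0.114 to 0.815 CPM), the fibrillin gene Fbn1 at 200 CPM (13.8 to 65.0 CPM) and Fstl1 at 281 CPM (25.5 to 71.5 CPM). The summed level of the list was 919 to 2149 CPM in wild-type myotubes, 1581 to 2968 CPM in wild-type myoblasts, 1786 to 1850 CPM in dICR/dICR myoblasts and 949 to 1458 CPM in dICR/dICR myotubes. Tnc, at 2319 and 2135 CPM in the deep myoblasts, made up most of the highest sums. The 6 called markers with the smallest p in wild-type differentiation went both ways (log2 fold changes). Higher were Ogn (2.61 ± 0.42), Postn (3.90 ± 0.69), Tcf4 (1.01 ± 0.24) and Pdgfrb (7.07 ± 1.73), and lower Sfrp2 (-3.06 ± 0.73) and Fbln1 (-2.50 ± 0.65). Tcf4 was entered in the list by its symbol alone, and whether that gene marks fibroblasts was not checked. It is counted in the 27 markers and in their sums. Without wild-type myotube 2, Fbln1 (3.13 ± 0.42), Ly6a (4.95 ± 0.95) and Pcolce were higher and Fbln2 (-6.88 ± 1.49) lower in dICR/dICR myotubes, where 5.93% of all genes were called.

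Wild-type myotube 2 also held the lowest sum of 20 sarcomere markers among wild-type myotubes (60322 CPM, the highest being 125134 CPM) and the highest sum of 12 cell-cycle markers (1291 CPM, the lowest being 75.0 CPM). The part of these markers in the collagen values was not tested. As Pdgfra, Dcn, Lum and Thy1 were near 0 in all 13 libraries while other fibroblast markers were not, no collagen gene is assigned here to fibroblasts or to muscle cells.

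**Figure D5:**
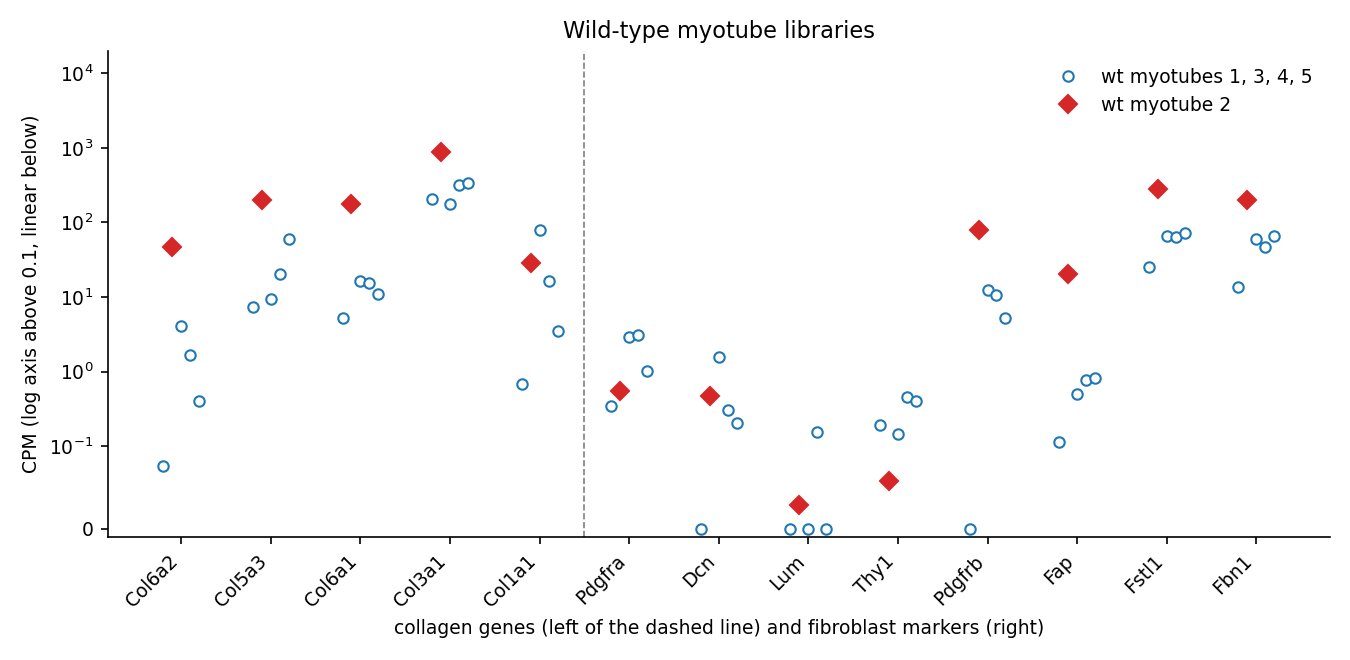
CPM in the 5 wild-type myotube libraries of 5 collagen genes (left) and 8 fibroblast markers (right), with wild-type myotube 2 as a red diamond; the axis is logarithmic above 0.1 CPM and linear below. Library 2 is highest for Col6a2, Col5a3, Col6a1, Col3a1, Pdgfrb, Fap, Fstl1 and Fbn1, but not for Col1a1, Pdgfra, Dcn or Thy1.

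The third question is whether the dICR deletion changes collagen expression. In myotubes 1 collagen gene, Col5a2, was called, and it was lower in dICR/dICR. This is 1 of 44, or 2.27%, where 0.556% of all genes were called. Col5a2 held 198 and 301 CPM in dICR/dICR myotubes against 627 to 853 CPM in wild-type myotubes, and the groups did not overlap. Its levels in dICR/dICR myotubes overlapped with those of myoblasts, which held 261 and 205 CPM in dICR/dICR and 278 to 407 CPM in wild type. On the log2 scale the change was -1.63 ± 0.29 (adjusted p = 0.0350), -1.62 ± 0.31 without wild-type myotube 2 (adjusted p = 0.0111) and -1.61 ± 0.24 within the deep set (adjusted p = 0.00694). The direction held in all 22 alternative settings, at -1.96 to -1.36, but the call did not: it passed in 10 of them, with adjusted p from 1.18e-07 to 0.649, and was lost when any 1 of 10 libraries was left out. Other markers moved with this contrast. The summed level of 12 cell-cycle genes was 2653 and 1177 CPM in dICR/dICR myotubes, against 1291 CPM in wild-type myotube 2 and 75.0 to 218 CPM in the other 4. That of 20 sarcomere genes was 22644 and 52074 CPM against 60322 to 125134 CPM, and Myog stood at 1253 and 1669 CPM against 2497 to 6412 CPM. Their part in the Col5a2 value was not tested. With library size alone Col5a2 was not called, where 0.508% of all genes were. DESeq2 called Col5a2 and Col6a6, both lower, where 6.31% of all genes were called. Without wild-type myotube 2 Col5a2 was again the 1 collagen gene called, where 5.93% of all genes were.

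Over the 44 collagen genes, Col5a2 included, 37 log2 fold changes were negative, with a median of -1.13 against -0.06 over all genes. Without wild-type myotube 2 the median was -0.78 and 33 were negative. Within the deep set without that library it was -0.35, with 27 negative and 17 positive. Col3a1 held 185 and 92.6 CPM in dICR/dICR myotubes, a log2 fold change of -1.47 ± 0.63 (adjusted p = 0.267), and Col5a1 held 169 and 156 CPM (-1.27 ± 0.57, adjusted p = 0.286).

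Within the deep set the 1 collagen gene called was again Col5a2, where 3.63% of all genes were called. Leaving wild-type myotube 2 out of the deep set as well, which was tried only once the data had been seen, called 7 collagen genes, where 14.6% of all genes were called. Of these 4 were higher in dICR/dICR: Col25a1 (2.49 ± 0.54, adjusted p = 0.00948), Col4a2 (1.48 ± 0.22, adjusted p = 0.00120), Col4a1 (1.36 ± 0.28, adjusted p = 0.00737) and Col8a1 (0.88 ± 0.21, adjusted p = 0.0161). Over all libraries these 4 had 0.85, 0.14, 0.20 and 0.20 and were not called. Lower were Col5a2, Col19a1 (-1.87 ± 0.41, adjusted p = 0.0101) and Col6a6. The Col6a6 call rests on few counts: 0 in both dICR/dICR myotubes, and 1 and 12 in wild-type myotubes 1 and 3 (0.0381 and 0.289 CPM). The level behind the Col25a1 value was 37.5 and 104 CPM in dICR/dICR myotubes against 10.8 and 14.0 CPM in wild-type myotubes 1 and 3. The shallow wild-type myotubes 4 and 5, with 47.4 and 92.9 CPM, overlapped with the dICR/dICR values.

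In myoblasts no collagen gene was called over all libraries, where 0.0302% of all genes were called. At an unadjusted p under 0.05 there were 2 by edgeR (4.55%, against 12.1% of all genes), and DESeq2 and limma voom also called 0, where they called 3.21% and 0.0544% of all genes. The median log2 fold change was -0.02, and 22 of 44 were positive. Within the shallow set, which holds both dICR/dICR myoblasts and wild-type myoblasts 3 and 4, 2 collagen genes were called, where 5.25% of all genes were called. With depth as a term in the fit of all libraries 1 was called, Col8a1, where 2.01% of all genes were. The depth term is estimated from wild-type libraries alone, as each dICR/dICR group lies in 1 depth set.

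Col8a1, a short-chain collagen that forms hexagonal networks around vessels, held 86.2 and 106 CPM in dICR/dICR myoblasts. The shallow wild-type myoblasts held 5.80 and 6.59 CPM of it. The log2 fold change within the set was 3.96 ± 0.67 (adjusted p = 0.00945). The deep wild-type myoblasts held 72.8 and 76.1 CPM, near the dICR/dICR level, and over all libraries the value was 1.24 ± 0.97 (adjusted p = 0.603). Across its 21 alternative settings the adjusted p ran from 0.00945 to 0.950. The 250 bases before its start (GRCm38.p6, chr16:57754738-57754987, minus strand) are shown for their GC boxes: capitals mark GGGCGG, all read here as its reverse complement, at positions -170, -73, -66 and -23.
Col8a1: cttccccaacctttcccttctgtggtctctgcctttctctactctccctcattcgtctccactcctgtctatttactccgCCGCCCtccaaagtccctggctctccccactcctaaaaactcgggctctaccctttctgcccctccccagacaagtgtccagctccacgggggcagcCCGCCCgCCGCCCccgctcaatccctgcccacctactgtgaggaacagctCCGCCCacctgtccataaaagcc
GGGCGG was in 60.0% of the 35 collagen promoters searched and in 32.9% of all promoters, and TATAAA in 14.3% and 13.0%.

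Col19a1 was lower in dICR/dICR myoblasts, at 55.0 and 24.4 CPM against 333 and 294 CPM in the shallow wild-type myoblasts, a log2 fold change within the set of -2.98 ± 0.56 (adjusted p = 0.0153). The deep wild-type myoblasts, at 49.0 and 40.0 CPM, lay among the dICR/dICR values, and over all libraries it was -2.17 ± 0.90 (adjusted p = 0.376, and 0.0153 to 0.932 over 21 alternative settings). Sarcomere genes moved with it within the shallow set: 11 of 20 were called lower in dICR/dICR, where 547 of all 16537 genes tested were. Their sums were 12770 and 5156 CPM against 26641 and 30393 CPM. Myog was called lower too (-2.10 ± 0.49, adjusted p = 0.0333). The part of Myog and the sarcomere genes in the Col19a1 value was not tested. In dICR/dICR myotubes Col19a1 held 48.0 and 115 CPM, which overlapped with wild type: wild-type myotube 2 held 101 CPM and the other 4 held 281 to 340 CPM. In the shallow set genotype coincides with a Y-linked gene: Ddx3y was 14.5 and 63.1 CPM in dICR/dICR myoblasts against 0.247 and 0.153 CPM in the shallow wild-type ones. The deep wild-type myoblasts held 33.4 and 27.6 CPM of Ddx3y. The part of Ddx3y, or of the sex of the pups, in the Col8a1 and Col19a1 values was not tested. The labels do not give that sex. Within the shallow set the Ddx3y level, and any difference in sex behind it, cannot be told apart from the genotype.

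The last question is whether collagen genes respond to differentiation in dICR/dICR cells as in wild type. The dICR/dICR myoblasts and myotubes lie in different depth sets, so depth, the small nucleolar RNA share and differentiation cannot be told apart. No collagen gene was called, where 0.145% of all genes were, and 5 had an unadjusted p under 0.05 (11.4%, against 19.2% of all genes). DESeq2 called 2 (Col12a1 higher and Col6a6 lower), where 7.28% of all genes were called, and limma voom 0, where 0.593% were. With depth as a term 2 were called (Col25a1 higher and Col8a1 lower), where 7.63% of all genes were. That term rests on wild-type libraries alone, and whether it holds in dICR/dICR cells cannot be checked here. Col8a1 was -3.82 ± 0.90 with the term and -1.44 ± 1.18 without it. Col12a1 held 7.04 and 6.26 CPM in dICR/dICR myoblasts and 39.4 and 29.0 CPM in dICR/dICR myotubes, a log2 fold change of 2.36 ± 0.70 (edgeR adjusted p = 0.137). Col5a3 went from 0.938 and 1.04 to 15.7 and 8.03 CPM (3.58 ± 1.41, adjusted p = 0.213). The values in wild type were 1.68 and 3.81. In both cases the dICR/dICR groups did not overlap. With 2 libraries in each group this also held for many other collagen genes, in both directions. The share over all genes was not computed, so no result is drawn from it. Col5a2 gave 0.10 ± 0.31 in dICR/dICR (adjusted p = 0.895).

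The difference between the 2 differentiation changes, dICR/dICR minus wild type, was called for no gene of the table (0% of all genes, with 1643 at an unadjusted p under 0.05), and DESeq2 called 62 genes (0.406%) but no collagen gene. At an unadjusted p under 0.05 there were 6 collagen genes (13.6%, against 9.94% of all genes), and limma voom called 0. For Col5a2 it was -1.10 ± 0.38 (adjusted p = 0.495), with -1.44 to -0.84 over 20 alternative settings. The median over the 44 collagen genes was -0.87, against 0.04 over all genes, and -0.43 without wild-type myotube 2.

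Collagen chains are hydroxylated, folded, trimmed and cross-linked by a set of dedicated proteins, and 37 such genes passed the filter. In wild-type differentiation 5 were called higher and 5 lower, which is 10 of 37 where 19.1% of all genes were called, and the median log2 fold change was 0.10. P4ha1, a prolyl hydroxylase subunit that stabilises the helix, was higher (1.31 ± 0.21, adjusted p = 0.00223), at 236 to 347 CPM in wild-type myotubes against 94.2 to 149 CPM in wild-type myoblasts. Leprel2, a prolyl 3-hydroxylase, was lower (-1.27 ± 0.19, adjusted p = 0.00142), as were Leprel1 (-1.18 ± 0.28), the procollagen peptidase Adamts14 (-1.60 ± 0.32), the enhancer of procollagen cleavage Pcolce2 (-3.06 ± 0.70) and the cross-linking oxidase Loxl3 (-1.38 ± 0.35). Pcolce2 held 34.8 to 44.7 CPM in wild-type myoblasts and 0.577 to 10.4 CPM in wild-type myotubes.

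Of 8 collagen receptor genes 3 were called higher, where 8.86% of all genes were: the integrin gene Itgb1 (0.85 ± 0.19, adjusted p = 0.0116), Itga11 (2.42 ± 0.77, adjusted p = 0.0466) and the collagen uptake receptor Mrc2 (3.20 ± 0.98, adjusted p = 0.0398). Without wild-type myotube 2, where Mrc2 held 76.8 CPM, only Itgb1 was called. Of 14 genes of collagen breakdown 2 were called higher, Ctsk (2.95 ± 0.91) and the protease inhibitor Timp3 (2.31 ± 0.73), and 3 lower, Ctsl (-1.42 ± 0.29), Mmp16 (-2.33 ± 0.55) and the inhibitor Timp1 (-2.81 ± 0.68), where 8.86% and 10.2% of all genes were. Timp3 held 166 CPM in wild-type myotube 2 and 16.1 to 66.9 CPM in the other 4, and without that library it was no longer called, while Mmp15 was called higher (1.23 ± 0.39, adjusted p = 0.0432). For these 3 lists no gene was called for either genotype effect over all libraries. Within the deep set P4ha1 was lower in dICR/dICR myotubes, at 139 and 131 CPM (-1.02 ± 0.21, adjusted p = 0.0241), and Adamts2, a procollagen peptidase gene, was called lower too, at 0 and 0.0475 CPM against 0.152, 10.2 and 1.35 CPM in the deep wild-type myotubes. Without wild-type myotube 2, over both sets, P4ha1 was lower (-1.23 ± 0.28, adjusted p = 0.0287), and Pcolce (1.37 ± 0.35, adjusted p = 0.0442) and Mmp16 (1.64 ± 0.40, adjusted p = 0.0376) were higher in dICR/dICR.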

How the data were processed

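Reads were aligned to mm9 with TopHat2 and counted with HTSeq, per the submitters' processing notes. No version, annotation or strand setting was given in the sources used here. Raw counts per gene and library were used as the authors deposited them. The labels describe an Illumina and a SOLiD platform but not which library was run on which. Symbols matched the rule in 44 rows. Genes were filtered with filterByExpr (minimum count 10, minimum total 15), which kept 16537. All 13 libraries entered 1 edgeR 4.0.16 fit (R 4.3.3, TMM scaling, quasi-likelihood test), with a mean for each of the 4 groups. Its 5 contrasts are the 2 genotype effects, the 2 differentiation effects and their difference. Tests are two-sided, with Benjamini-Hochberg adjustment over all genes tested and a threshold of 0.05. Values within a depth set (divided at 20 M counts) come from 1 fit with a mean per group and set. CPM per kb uses the longest coding transcript of GENCODE M21, and promoters are from RefSeq, build GRCm38.p6, with 35 of 44 genes matched by symbol. Fits were tested on simulated counts. Alternatives were DESeq2 1.42.0, limma 3.58.1 voom, other scalings, no filter, a replicate block, depth terms and leaving out each library.

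Members, gene lists and settings were chosen with earlier results of these data known. Values per library are given for each called collagen gene and for textbook muscle and connective tissue chains, and of the other lists at most the 6 called genes with the smallest p are named. Col6a6, Col8a1, Col11a1 and Col26a1 fall outside that rule, and their values per library are given because of what those values were. Whether replicate numbers pair the libraries is not known. The correlation of same-numbered libraries' deviations from their group means ran from -0.411 to 0.518. Between wild-type myoblasts and myotubes it was 0.427, 0.518, -0.411 and 0.517 for numbers 1 to 4, of which number 3 joins a shallow and a deep library. Differently numbered libraries were not compared, so these values cannot decide the question.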

Additional observations from a re-analysis of the deposited data

Results flagged for a closer look

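In 44 checks of a group of 4 or 5 wild-type libraries for 1 sample far from the rest, 9 stood out. Of the 9, 7 were wild-type myotube 2. The limit used lets through about 1 in 20 for independent, normally distributed values. CPM values of related, chosen genes in the same libraries are not such values, so the count is not set against chance. Over all genes, wild-type myotube 2 was above the other 4 wild-type myotubes for 19.9% and below them for 16.8%. That library was far above the other 4 wild-type myotubes for Col3a1 (888 CPM), Col5a3 (198 CPM), Col6a1 (175 CPM), Col6a2 (46.9 CPM), Col8a1 (85.9 CPM) and Col12a1 (113 CPM), and far below them for Col19a1 (101 CPM). Col4a4 was far higher in wild-type myotube 3, at 3.85 CPM, than in the other 4. Col12a1 was far higher in wild-type myoblast 3, at 24.7 CPM, than in the other 3 myoblasts.

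The direction of Col4a4 in differentiation differed between genotypes: a log2 fold change of 1.92 in wild type, where each myotube was above each myoblast, and -1.14 in dICR/dICR, where both myotubes were below both myoblasts. The test of that difference gave -3.06 ± 1.05 and was not called (edgeR adjusted p = 0.495, 0.174 to 0.793 over 20 alternative settings), at levels of 0.306 to 3.85 CPM.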

How the results depend on the processing

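The count of collagen genes called moved with the setting. The 0 of the genotype effect in myoblasts became 1 with depth as a term and 2 within the shallow set. The 1 of the genotype effect in myotubes became 2 with DESeq2, 0 with library size alone, 0 with the replicate block and 7 within the deep set without wild-type myotube 2, and 0 to 1 with 1 library left out. The 10 of wild-type differentiation became 4 with limma voom, 5 with the replicate block, 17 within the deep set, 1 within the shallow set and 3 to 12 with 1 library left out. The 0 of differentiation in dICR/dICR became 2 with depth as a term (Col25a1 higher, Col8a1 lower) and 2 with DESeq2. The replicate block ended the calls of Col4a4, Col5a1, Col5a3, Col6a2 and Col15a1 in wild-type differentiation. Crossing the dICR/dICR myotube numbers in the block moved the calls over all genes from 73 higher and 27 lower to 728 and 318 in dICR/dICR differentiation, with 0 collagen genes in both.

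Of 800 values of single genes under an alternative, 44 had the opposite sign, none of them a gene called over all libraries in that comparison. In wild-type differentiation, Col1a2 turned to 0.14 with limma voom, 0.58 with the replicate block, 0.23 with depth as a term and 1.85 in the shallow set. Col4a1 turned to 0.12, 0.25 and 0.52 with those first 3 settings and Col4a2 to 0.35, 0.28 and 0.64. In the deep set Col4a1 was 1.99 and Col4a2 2.03, or 0.82 and 0.68 without wild-type myotube 2, where Col3a1 was -0.11. In the shallow set Col3a1 was -0.23, Col6a1 -0.02, Col8a1 1.26 and Col13a1 0.05, and with the replicate block Col8a1 was 0.37. In myotubes, the genotype effect of Col8a1 was -1.01 with the replicate block, -0.61 with depth as a term and -0.22 in the deep set. Col5a2 in dICR/dICR differentiation was -0.03 with DESeq2, -0.03 with RLE size factors and -0.19 with library size alone. With 1 library left out, wild-type differentiation gave -0.78 to 0.26 for Col1a2, -0.19 to 0.59 for Col3a1, -0.77 to 0.28 for Col4a1, -0.63 to 0.43 for Col4a2 and -1.22 to 0.11 for Col8a1. The genotype effect in myotubes gave -0.08 to 1.42 for Col25a1, -0.06 to 0.67 for Col4a1, -0.12 to 0.65 for Col4a2 and -0.00 to 1.04 for Col8a1, and Col5a2 in dICR/dICR differentiation gave -0.24 to 0.36. The cause of these changes was not tested. Where 1 dICR/dICR library is left out, the lone one is assumed to vary like the other groups. Depth limits the 12 genes with fewer than 10 counts in each library of at least 1 group. Col6a2 and Col15a1 are among them, with 1 to 9 counts in wild-type myoblasts, so the size of their fold changes is uncertain.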
